A study of Mus musculus with 8 samples.

Results

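Iron storage and iron sensing in cultured mouse hepatocytes was followed through 10 genes, taken by name from the deposited count table of 56748 genes: Fth1, Ftl1, Tfrc, Tfr2, Hamp, Hfe, Bmp6, Ireb2, Aco1 and Cp. All 10 passed the filter on low counts and were among the 14279 genes tested. RNA was sequenced from primary hepatocytes kept for 24 h on collagen-coated hydrogels of 1 kPa (soft) or 20 kPa (stiff), with 2 libraries in each of 4 groups. All animals were C57BL/6J mice carrying Yap fl/fl and Taz fl/fl alleles. The knockout groups (KO) came from mice given AAV8-TBG-Cre, a virus that expresses Cre recombinase from the hepatocyte promoter TBG, and the wild-type groups (WT) from mice given AAV8-TBG-Null, so that the wild type also carried the floxed alleles and a virus. By the series description, injection was at 7 to 8 weeks of age and cells were taken 10 days later. The sample protocol gives an age of 8 weeks. The series description gives the mice as female and the sample protocol as male, and no source says whether the 2 libraries of a group came from separate animals or cultures, so that p-values measure only the spread between these libraries.

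Hepatocytes are a main iron store of the body and the source of hepcidin, the peptide hormone that removes the iron exporter ferroportin from cell surfaces. Iron that enters through transferrin receptors is stored in a shell of ferritin heavy and light chains. The iron regulatory proteins, encoded by Aco1 and Ireb2, bind a hairpin in mRNAs called the iron-responsive element when iron is scarce, which blocks translation of ferritin and stabilizes the mRNA of the transferrin receptor Tfrc. Hepcidin transcription is raised by the ligand Bmp6 through SMAD proteins, with Hfe and Tfr2 as sensors of loaded transferrin, and by inflammatory signals through STAT3. Cp encodes ceruloplasmin, a secreted ferroxidase that loads iron onto transferrin.

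Matches to the iron-responsive element in 3 of the 10 genes are shown because the iron regulatory proteins bind hairpins of this kind. They were found in GENCODE M21 transcripts (GRCm38) on the sense strand, as a C, 5 bases, the loop CAGTGN and 5 bases that pair with the first 5, G-U pairs allowed. Capitals mark the loop. Fth1 and Ftl1 carry the hairpin in the 5′ UTR, at chr19:9982732-9982760 (plus strand) and chr7:45459779-45459807 (minus strand), each within a single exon.
Fth1 5′ UTR: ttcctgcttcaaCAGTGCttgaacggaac
Ftl1 5′ UTR: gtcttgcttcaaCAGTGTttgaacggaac
Tfrc has 4 matches to this pattern in the 3′ UTR, all in a single exon of the plus strand, at chr16:32631219-32631247, chr16:32631598-32631626, chr16:32631663-32631691 and chr16:32631710-32631738. A hairpin with another loop or with a mismatch in the stem would be missed.
Tfrc 3′ UTR, hairpin 1: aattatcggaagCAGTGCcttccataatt
Tfrc 3′ UTR, hairpin 2: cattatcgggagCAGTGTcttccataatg
Tfrc 3′ UTR, hairpin 3: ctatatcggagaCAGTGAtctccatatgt
Tfrc 3′ UTR, hairpin 4: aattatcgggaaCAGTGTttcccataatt
Of 21901 genes with a coding transcript, 19 (0.087%) had such a hairpin in the 5′ UTR and 104 (0.475%) in the 3′ UTR. The other 7 members had none in these transcripts, and Slc40a1, which encodes ferroportin and is among the 83 other iron genes read from 5 lists, had it in the 5′ UTR. A match describes the letters and not a site in use.

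Library totals ran from 18324083 to 26442310 counts. Yap1 lay between 28.4 and 31.8 normalized CPM (CPM, a count as a share of the TMM-scaled library size) in the 4 KO libraries and between 95.5 and 140 in the 4 WT libraries, and Wwtr1, which encodes TAZ, between 13.7 and 16.6 against 41.5 to 65.2. All 8 hepatocyte markers were tested, with a summed level of 63160 to 91760 CPM of the library total. Markers of liver endothelial cells summed to 48.3 to 107 CPM and those of Kupffer cells and macrophages to 21.4 to 62.4 CPM. Markers of cholangiocytes summed to 539 to 589 CPM in WT and 326 to 354 CPM in KO. Those of stellate cells and fibroblasts summed to 19.6 to 35.9 CPM. Positions of genes are printed as deposited. They equal those of GRCm38 for 1 of the 10 genes, the submitters' processing notes name mm9, and the build of these positions was not settled.

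In WT hepatocytes 3 of the 10 genes differed between the hydrogels: Tfrc and Bmp6 rose on stiff, and Hamp fell. A gene was called at an adjusted p under 0.05 (edgeR's quasi-likelihood test, Benjamini-Hochberg adjustment over all genes tested) with an absolute log2 fold change over 0.5. The same thresholds called 19.3% of all genes in this comparison, so the count of members lay near the background. The median log2 fold change was -0.094 over the 10 genes and -0.0087 over all genes. A further 3 genes, Fth1, Tfr2 and Cp, passed the adjusted p but not the fold. In KO hepatocytes 0 of the 10 genes were called on stiff against soft with edgeR and 0 with DESeq2, where 0.021% of all genes were called. Of the 10, 1 gene, Cp, had an unadjusted p under 0.05 from edgeR, as had 1077 of the 14279 genes tested.

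**Figure D1:**
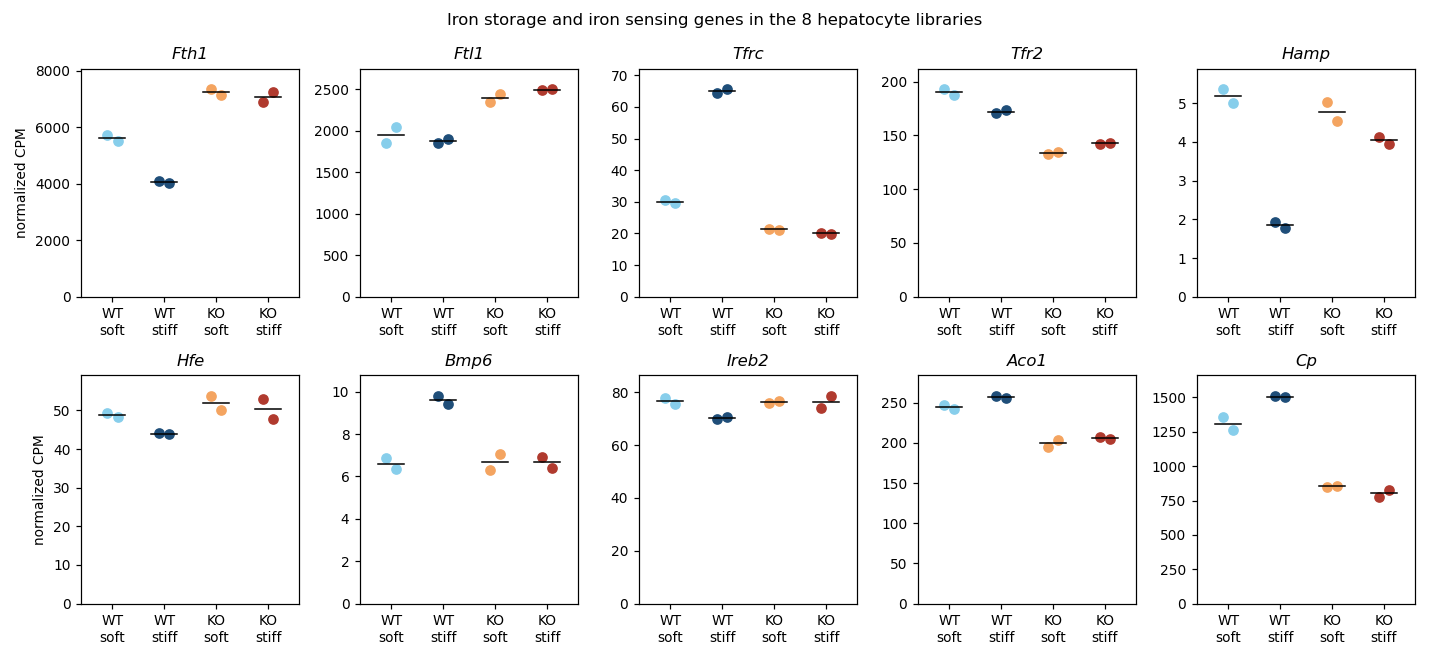
Normalized CPM (vertical axes, from 0) of the 10 genes in each of the 8 libraries, grouped by genotype and hydrogel. Points are libraries and lines are group means of 2. Tfrc stands at 64.3 and 65.5 in the WT stiff libraries against 20.0 to 30.6 in the other 6, and Hamp at 1.78 and 1.93 against 3.95 to 5.35.

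Ferritin made up a visible share of each library. Fth1 (ENSMUSG00000024661, chromosome 19 from 9957962 to 9962462), the heavy chain with ferroxidase activity, took 0.395% to 0.746% of all counts and Ftl1 (ENSMUSG00000050708, chromosome 7 from 45107368 to 45109308), the light chain that helps to form the iron core, 0.181% to 0.254%. Per gene length the ferritin chains were the most abundant of the 10 genes in every library, at 1163 to 2115 CPM per kilobase for Fth1 and 1381 to 1864 for Ftl1. The next gene in order was Cp.

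Fth1 was lowest on WT stiff. Its level was 5706 and 5510 normalized CPM in the WT soft libraries and 4101 and 4034 in the WT stiff libraries. In KO it was 7336 and 7129 on soft and 6888 and 7244 on stiff. The groups did not overlap except for the KO pair, and both KO groups lay above both WT groups. The log2 fold change on stiff against soft was -0.46 in WT (SE 0.028, adjusted p = 2.01e-10 from edgeR), under the fold threshold, and -0.034 in KO (95% interval -0.092 to 0.025). The difference between these effects was 0.43 (SE 0.039, adjusted p = 1.33e-07 from edgeR), also under the fold threshold.

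For Ftl1 the spread within WT covered the difference between hydrogels. It stood at 1857 and 2043 normalized CPM on WT soft, 1851 and 1894 on WT stiff, 2342 and 2437 on KO soft, and 2492 and 2498 on KO stiff. The WT groups overlapped, and all 4 KO libraries lay above all 4 WT libraries. Its log2 fold change in WT was -0.058 (95% interval -0.14 to 0.020, adjusted p = 0.233 from edgeR). Ftl1 shares 87.4% of its 64-base transcript windows with other genes, 68.8% with Ftl1-ps1, whose hairpin has the same 29 bases as the light-chain hairpin printed above. The table lists Ftl1-ps1 at 1.72% to 2.55% of the Ftl1 count, so a part of either count is uncertain, whereas Fth1 shares 2.2% of its windows. Against the ferritin light chain the heavy chain was 1.04 and 1.19 times as high per length on WT soft, 0.856 and 0.823 on WT stiff, and 1.07 to 1.21 in the 4 KO libraries. The ratio per length lay below 1 in the WT stiff libraries only, and no test was run on it. Its place relative to 1 rests on the deposited gene lengths, 3469 bases for Fth1 and 1340 for Ftl1. In raw counts the ratio was above 1 in all 8 libraries. It was 3.07 and 2.70 on WT soft, 2.22 and 2.13 on WT stiff, and 2.76 to 3.13 in KO.

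Cp (ENSMUSG00000003617, chromosome 3 from 20011218 to 20063309), the plasma ferroxidase, differed mainly between genotypes. It stood at 1355 and 1262 normalized CPM on WT soft, 1509 and 1505 on WT stiff, 852 and 855 on KO soft, and 779 and 830 on KO stiff. All KO libraries lay below all WT libraries, and neither pair of hydrogel groups overlapped. In WT the log2 fold change on stiff against soft was 0.20 (SE 0.038, adjusted p = 3.08e-04 from edgeR), under the fold threshold. The KO value was -0.085 (unadjusted p = 0.041, adjusted p = 0.645 from edgeR). The difference of the effects, -0.29, passed the adjusted p but not the fold. Hps3 overlaps Cp on the opposite strand and averaged 255 counts, against 23910 for Cp.

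**Figure D2:**
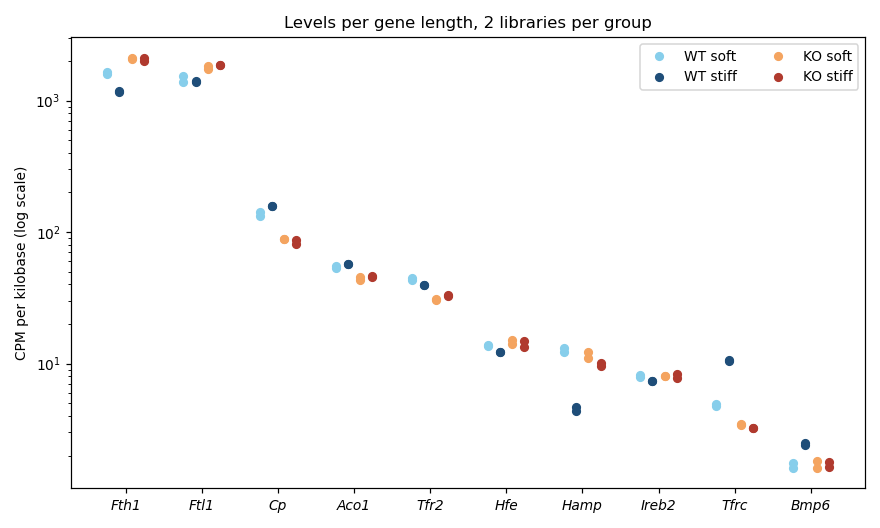
CPM per kilobase of gene length (log axis) for the 10 genes, ordered by their level on WT soft, with a point for each library. The ferritin chains lie at 1163 or above in all libraries and Bmp6 at 2.51 or below, and the order of Hamp, Ireb2 and Tfrc on WT stiff is the reverse of that on WT soft.

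Of the transferrin receptors, Tfrc was called for stiffness in WT and Tfr2 was not. Tfrc (ENSMUSG00000022797, chromosome 16 from 32427738 to 32451612), the receptor for iron uptake with the 4 matched hairpins printed above, had 795 and 531 counts on WT soft, 1333 and 1290 on WT stiff, 550 and 424 on KO soft, and 431 and 404 on KO stiff. In normalized CPM this was 30.6 and 29.5, then 64.3 and 65.5, then 21.5 and 21.1, then 20.2 and 20.0. The WT stiff libraries were the highest and no groups overlapped. Tfrc rose from 30.1 ± 0.80 to 64.9 ± 0.90 normalized CPM in WT (SD, n = 2), which is 2.16-fold, with a log2 fold change of 1.11 (SE 0.067, adjusted p = 2.30e-10 from edgeR). In KO the log2 fold change was -0.084 (95% interval -0.24 to 0.076), and the difference of the effects was -1.19 (SE 0.10, adjusted p = 5.26e-08 from edgeR). The 6 markers of erythroid cells, whose precursors are rich in Tfrc, summed to 0.895 to 1.72 CPM of the library total. Among them Hbb-bt had a count of 0 in all 8 libraries, which allows up to 3 counts in each, and Hba-a1 had at most 9 counts. Alas2, the 1 erythroid marker that was tested, had 15 to 28 counts. Its log2 fold change on WT stiff against soft was 0.24, not called, and the part of erythroid cells in the Tfrc result was not tested.

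Tfr2 (ENSMUSG00000029716, chromosome 5 from 137568102 to 137585743), the sensing receptor of hepatocytes, stood at 193 and 188 normalized CPM on WT soft, 171 and 173 on WT stiff, 133 and 135 on KO soft, and 142 and 143 on KO stiff. The 4 groups did not overlap, and the KO libraries were lower than the WT libraries on both hydrogels. The stiffness effect was -0.14 in WT on the log2 scale (SE 0.044, adjusted p = 0.014 from edgeR) and 0.093 in KO (95% interval -0.0017 to 0.19). Per gene length Tfrc was 0.110 and 0.111 times the level of Tfr2 on WT soft and 0.263 and 0.265 times on WT stiff. In the KO libraries it was 0.0977 to 0.113 times, so that Tfr2 was the more abundant receptor mRNA throughout. Neither receptor gene shared a 64-base window with another gene, and their coding sequences were 61.3% identical over aligned bases.

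Hamp (ENSMUSG00000050440, chromosome 7 from 30641793 to 30643457), which encodes hepcidin, was low in all libraries and lowest on WT stiff. It had 139 and 90 counts on WT soft, 40 and 35 on WT stiff, 129 and 91 on KO soft, and 88 and 80 on KO stiff. Its levels were 5.35 and 5.0 normalized CPM, then 1.93 and 1.78, then 5.03 and 4.53, then 4.12 and 3.95. The WT stiff libraries lay apart from the other 6, and the soft groups of the genotypes overlapped. Hamp fell from 5.18 ± 0.25 to 1.85 ± 0.11 normalized CPM in WT (SD, n = 2), with a log2 fold change of -1.48 (SE 0.21, adjusted p = 1.19e-05 from edgeR). In KO it was -0.25 (95% interval -0.63 to 0.14), and the difference of the effects was 1.23 (SE 0.28, adjusted p = 0.00235 from edgeR). Of the 8 hepatocyte markers, 3 were also called lower on WT stiff against soft, Hnf4a (-0.98), Tat (-0.72) and Fgb (-0.60), and 0 higher. The same thresholds called 19.3% of all genes. The other 5 markers were not called, with Alb the highest at 0.080. The 8 summed to 88270 and 88930 CPM of the library total on WT soft and 90130 and 91760 on WT stiff. Most of this sum was Alb. The part of the hepatocyte markers in the Hamp result was not tested.

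Hamp2, the hepcidin paralog of the mouse, went the other way. It lies 17687 bases from Hamp, with coding sequences 85.1% identical over aligned bases, and had 146 and 67 counts on WT soft, 412 and 432 on WT stiff, 94 and 47 on KO soft, and 59 and 74 on KO stiff. Only the WT stiff libraries stood out, here as the highest. Hamp2 rose from 4.67 ± 1.3 to 20.9 ± 1.5 normalized CPM in WT (SD, n = 2), 4.47-fold, with a log2 fold change of 2.13 (SE 0.19, adjusted p = 6.03e-08 from edgeR). Its log2 fold change in KO was 0.069, and the difference of the effects was -2.06 (SE 0.31, adjusted p = 5.93e-05 from edgeR).

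As a share of both genes' counts, Hamp took 48.8% and 57.3% on WT soft but 8.85% (95% exact binomial interval 6.40% to 11.9%) and 7.49% (5.28% to 10.3%) on WT stiff. In the KO libraries it took 52.0% to 65.9%. The intervals cover counting error only and did not overlap between the WT stiff libraries and any other. Hamp shares 8.36% of its 64-base windows with Hamp2, so a read from these windows could be counted for either. Hamp2 shares 15.8% of its windows with 2 other genes, 8.02% with Gm44662, which had a mean of 0 counts. With the counts of both genes added, the log2 fold change on WT stiff against soft was 1.20 and that of KO against WT on stiff -1.65, both past the thresholds and opposite in sign to Hamp alone.

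**Figure D3:**
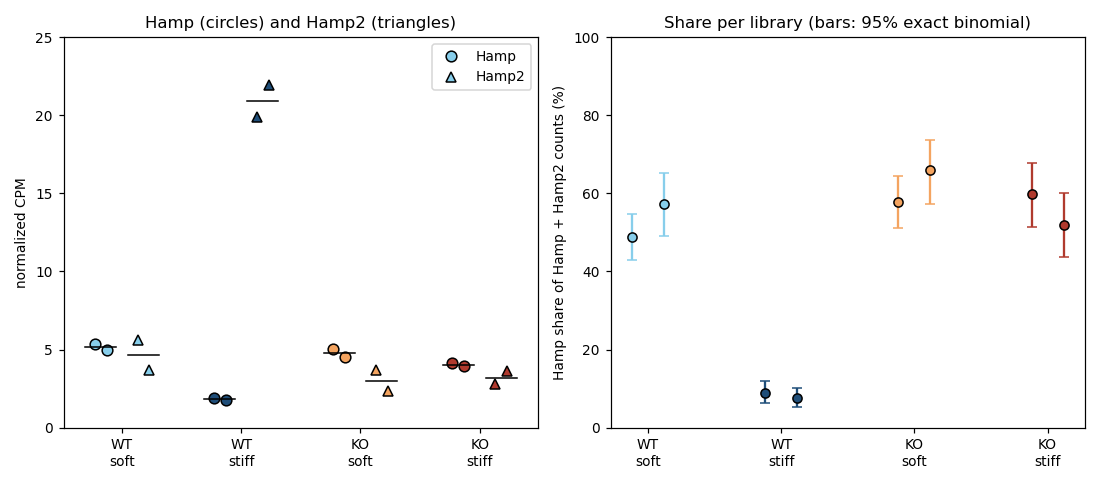
Left, normalized CPM of Hamp (circles) and Hamp2 (triangles) in each library, with lines at group means. Right, the percentage of the summed counts of both genes that fell on Hamp, with 95% exact binomial intervals. On WT stiff Hamp2 reaches 19.9 and 21.9 while Hamp stands at 1.93 and 1.78, and the share of Hamp drops to 8.85% and 7.49%.

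The 250 bases before the RefSeq start of these genes (GRCm38.p6, minus strand) are shown because the pair differed in direction. Capitals mark GGCGCC, the core of BMP response elements, and TTCNNNGAA, the STAT core, both searched on both strands.
Hamp, chr7:30944030-30944279: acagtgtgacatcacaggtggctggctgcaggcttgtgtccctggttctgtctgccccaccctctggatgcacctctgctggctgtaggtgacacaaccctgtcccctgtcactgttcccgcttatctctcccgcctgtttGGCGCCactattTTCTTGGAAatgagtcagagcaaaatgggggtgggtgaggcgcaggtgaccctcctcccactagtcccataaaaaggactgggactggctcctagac
Hamp2, chr7:30924182-30924431: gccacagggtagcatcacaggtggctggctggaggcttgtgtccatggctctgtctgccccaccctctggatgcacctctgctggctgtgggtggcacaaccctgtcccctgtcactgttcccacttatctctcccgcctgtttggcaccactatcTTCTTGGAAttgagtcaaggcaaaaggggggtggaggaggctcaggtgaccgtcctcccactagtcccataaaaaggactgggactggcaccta
The windows were 91.9% identical over aligned bases. Hamp held both motifs, and Hamp2 held TTCNNNGAA but not GGCGCC, with the substitution G145A inside the motif, counted from 1 at the 5′ end of the Hamp window. Of 32851 promoter windows of this length, 9.59% held GGCGCC and 7.02% held TTCNNNGAA. GGAATG, the core bound by TEAD factors, the DNA-binding partners of YAP and TAZ, was in neither window and in 12.6% of all windows. These matches describe letters only.

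Among the sensors and ligands that act on hepcidin, Bmp6 (ENSMUSG00000039004, chromosome 13 from 38529083 to 38684278), the ligand that raises it, had 178 and 114 counts on WT soft, 203 and 185 on WT stiff, 162 and 142 on KO soft, and 148 and 130 on KO stiff. This was 6.86 and 6.33 normalized CPM, then 9.79 and 9.40, then 6.32 and 7.06, then 6.93 and 6.42. The WT stiff libraries were the highest, and the other 3 groups overlapped each other. Bmp6 rose by 0.54 on the log2 scale in WT (SE 0.15, adjusted p = 0.00636 from edgeR), close to the fold threshold: without the second WT soft library it was 0.49. In KO its log2 fold change was 0.0014 (95% interval -0.31 to 0.32), and the difference of the effects, -0.54, missed the adjusted p (0.0633 from edgeR). Per gene length Bmp6 was the lowest of the 10 genes in every group, at 1.62 to 2.51 CPM per kilobase. Txndc5, on the opposite strand, overlaps Bmp6 and averaged 5081 counts against 158, and it had a log2 fold change of 0.17 in WT, so reads counted without regard to strand could enter either.

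Bmp6 and its relative Bmp2 are made in the liver largely by sinusoidal endothelial cells. The 8 endothelial markers summed to 73.2 and 74.6 CPM of the library total on WT soft, 48.3 to 51.3 on WT stiff, 95.1 to 98.3 on KO soft and 95.7 to 107 on KO stiff, with 4 of 8 called lower on WT stiff against soft and 0 called higher. Of the 7 Kupffer cell and macrophage markers tested, 5 were called lower in the same comparison, and the list summed to 33.0 to 37.3 CPM on WT soft and 21.4 to 24.3 on WT stiff. No endothelial or Kupffer cell marker was at 0 throughout a group. Bmp6 and these markers moved in opposite directions in WT, and the markers' part in the result was not tested. Of 4 cholangiocyte markers tested, only Krt19 was called on WT stiff against soft, higher at 3.3. In bulk samples fewer cells of a type and less RNA per cell cannot be told apart.

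Hfe (ENSMUSG00000006611, chromosome 13 from 23886017 to 23894837), the sensor lost in classical hemochromatosis, varied little, from 43.8 to 53.7 normalized CPM over the 8 libraries. Its log2 fold change on stiff against soft was -0.15 in WT (95% interval -0.29 to -0.013, adjusted p = 0.0764 from edgeR) and -0.043 in KO. The WT stiff libraries, at 44.1 and 43.8, were the lowest.

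Neither gene of the iron regulatory proteins passed the adjusted p for stiffness in WT or KO. Ireb2 (ENSMUSG00000032293, chromosome 9 from 54771073 to 54819814), which encodes IRP2, ranged from 69.8 to 78.5 normalized CPM, and its log2 fold change in WT was -0.13 (95% interval -0.24 to -0.014, adjusted p = 0.0679 from edgeR). Aco1 (ENSMUSG00000028405, chromosome 4 from 40143081 to 40198338), which encodes IRP1, an aconitase when it holds an iron-sulfur cluster, stood at 247 and 242 on WT soft, 258 and 256 on WT stiff, 195 and 204 on KO soft, and 207 and 205 on KO stiff. The KO libraries of Aco1 were all below the WT libraries, while its stiffness effect was 0.073 in WT (95% interval -0.016 to 0.16) and 0.049 in KO. Per gene length Ireb2 was 0.128 to 0.184 times the level of Aco1.

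**Figure D4:**
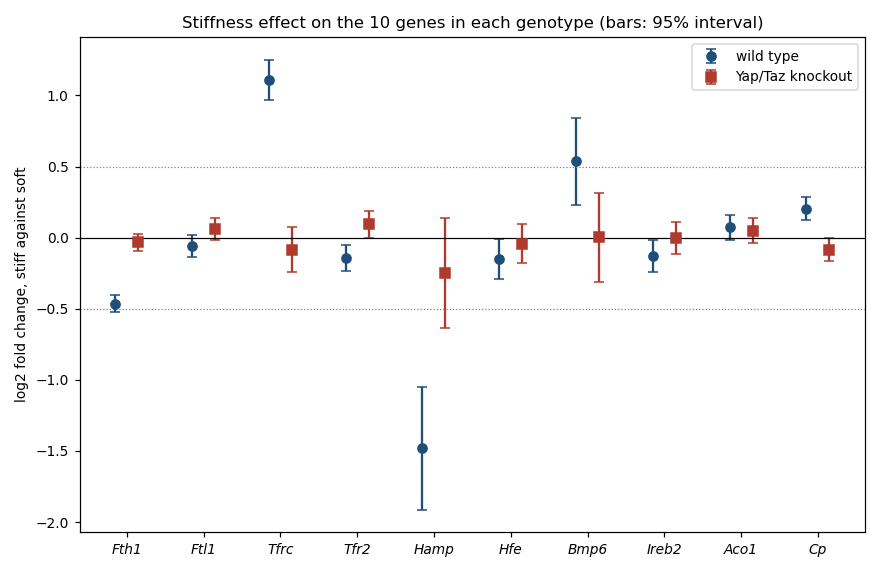
Log2 fold change on stiff against soft for the 10 genes in WT (circles) and KO (squares), with 95% intervals from the edgeR fit and dotted lines at -0.5 and 0.5. Tfrc at 1.11, Bmp6 at 0.54 and Hamp at -1.48 lie outside the dotted lines in WT, and all KO values lie between -0.25 and 0.093.

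Between genotypes on the soft hydrogel, 2 of the 10 genes were called, both lower in KO, where 6.67% of all genes were called. They were Cp at -0.62 on the log2 scale (SE 0.038, adjusted p = 1.22e-09 from edgeR) and Tfr2 at -0.51 (SE 0.045, adjusted p = 1.23e-07 from edgeR). Tfrc at -0.50 (adjusted p = 5.75e-05 from edgeR) fell just short of the fold, and both receptors crossed the threshold in some settings, with Tfr2 at -0.48 without the first WT soft library. Fth1 at 0.37, Ftl1 at 0.29 and Aco1 at -0.29 passed the adjusted p only. Hamp (-0.11), Hfe (0.088), Bmp6 (0.013) and Ireb2 (-0.0070) did not pass it.

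On the stiff hydrogel 5 of the 10 genes were called between genotypes, where 28.7% of all genes were called. Hamp at 1.12 (SE 0.21, adjusted p = 2.31e-04 from edgeR) and Fth1 at 0.80 (SE 0.028, adjusted p = 4.57e-14 from edgeR) were higher in KO. Tfrc at -1.69 (SE 0.071, adjusted p = 5.09e-13 from edgeR), Cp at -0.91 and Bmp6 at -0.52 were lower in KO, the mean of Tfrc in WT being 3.23 times that in KO. Bmp6 was at -0.48 without the second KO stiff library, under the fold threshold. Ftl1 at 0.41, Tfr2 at -0.27, Aco1 at -0.32 and Hfe at 0.20 passed the adjusted p but not the fold. The comparisons share libraries, so the values for a gene are not independent of each other.

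Tfrc and Hamp, 2 of the 10 genes, were called for the difference of the stiffness effect between genotypes, where 16.8% of all genes were called. Some hepatocyte markers moved between genotypes as well. The 8 summed to 88270 and 88930 CPM of the library total on WT soft and 63660 to 63910 on KO soft. Most of this sum was Alb, at 1102456 to 2119144 counts per library, while Apoa1 had at most 95553. On soft 2 of the 8, Alb and Cps1, were called lower in KO, and 6 were not called, with Tat the highest at 0.44. On stiff these were again called lower, while Hnf4a (1.17) and Tat (1.02) were called higher in KO. Endothelial markers were called higher in KO for 7 of 8 on the stiff hydrogel. Of 4 cholangiocyte markers tested, Krt19 and Spp1 were called lower in KO on both hydrogels, Krt19 at -4.87 on stiff. These shifts stand beside the genotype differences of Cp, Fth1 and Bmp6, and their part in them was not tested.

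Other genes of iron handling were read from 5 lists of 83 genes, of which 78 were tested. On WT stiff against soft 6 were called higher and 12 lower, 23.1% of those tested against 19.3% of all genes. In KO 0 were called with edgeR or with DESeq2, against 0.021% of all genes with edgeR. An unadjusted p under 0.05 from edgeR was met in KO by 9 of the 78 and by 1077 of all 14279 genes tested. In the hepcidin control list of 21 genes, 3 were called higher and 5 lower in WT, with a median log2 fold change of -0.11. Beside Hamp2, Smad7, an inhibitory SMAD, rose by 1.15 (SE 0.14, adjusted p = 3.73e-06 from edgeR), from 8.00 and 8.01 to 17.0 and 18.5 normalized CPM, and Acvr1, a BMP type I receptor, by 0.55. Hjv, the BMP co-receptor hemojuvelin, fell by 0.58, Neo1, its binding partner neogenin, by 0.63, and Stat3, the factor of the inflammatory arm, by 0.55. Id1, a target gene of BMP signaling, fell by 0.65 (SE 0.17, adjusted p = 0.00429 from edgeR), from 6.51 and 6.61 to 4.0 and 4.37 normalized CPM. Bmp2 was the lowest of the list at -1.49 (SE 0.20, adjusted p = 9.16e-06 from edgeR), from 6.39 and 4.72 normalized CPM to 2.12 and 1.88, and its KO libraries stood at 8.95 to 10.4. Bmp2 moved with the endothelial markers given above, whose part in it was not tested. Tmprss6, the protease that cuts hemojuvelin, at -0.10, and Smad6, at -0.37, did not pass. Stat5a, on the opposite strand, overlaps Stat3 and averaged 326 counts against 4640.

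Of 15 iron transport genes, 11 were tested in WT on stiff against soft, with 2 called higher, 3 lower and a median of -0.34. The lower genes were Lcn2 at -1.59, a siderophore-binding protein and acute phase product, Steap4 at -1.56, a metalloreductase, and Slc39a14 at -0.70, the ZIP14 importer of iron not bound to transferrin. Slc39a14 stood at 252 and 245 normalized CPM on WT soft, 154 and 152 on WT stiff, and 228 to 240 in KO. Only the WT stiff libraries were low. The metalloreductases Steap1, at 1.78, and Steap2, at 0.93, rose. Slc40a1, the exporter ferroportin, at -0.35 (adjusted p = 1.84e-05 from edgeR), and Trf, the plasma carrier transferrin, at 0.29 (adjusted p = 8.89e-09 from edgeR), passed the adjusted p but not the fold.

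**Figure D5:**
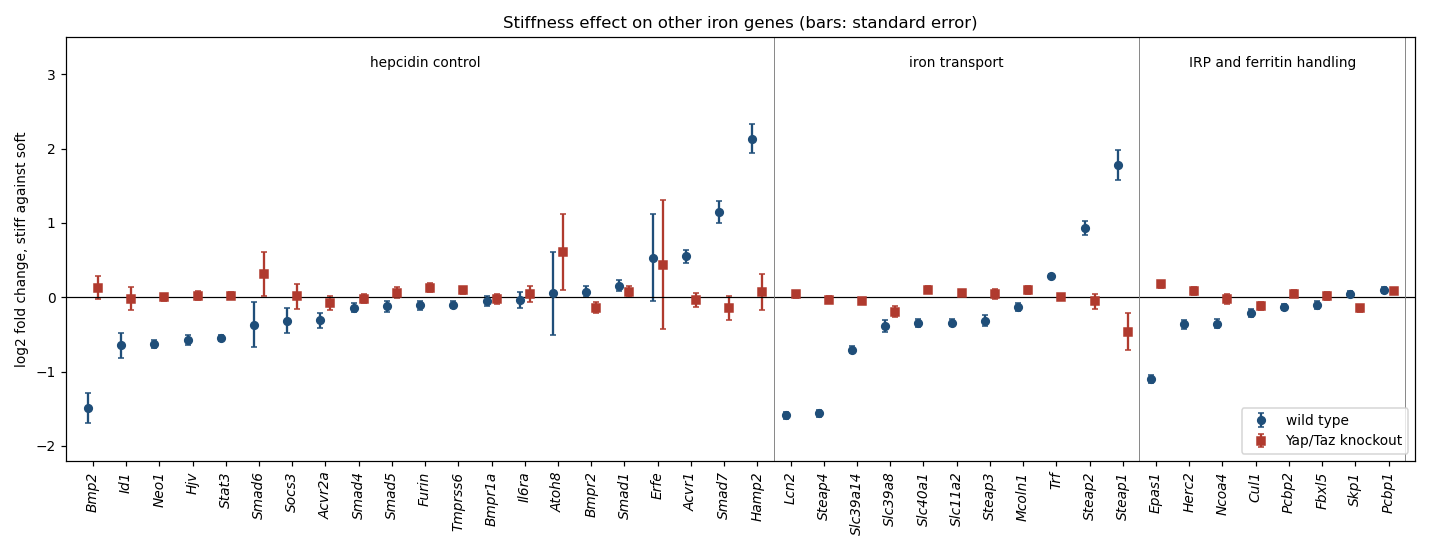
Log2 fold change on stiff against soft, with its standard error, for genes of 3 lists in WT (circles) and KO (squares), ordered within each list by the WT value. In WT the values run from -1.49 to 2.13 for hepcidin control, from -1.59 to 1.78 for iron transport, and from -1.10 to 0.10 for IRP and ferritin handling.

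Of 9 tested genes of IRP and ferritin handling, 1 was called, lower: Epas1 at -1.10 (SE 0.049, adjusted p = 3.73e-12 from edgeR), the hypoxia factor HIF-2α, which stood at 183 and 191 normalized CPM on WT soft and 88.3 and 86.7 on WT stiff. Ncoa4, the receptor that delivers ferritin to lysosomes, passed the adjusted p only, at -0.36, as did the iron chaperone Pcbp1 at 0.10, the highest of the list. Fbxl5, the iron-sensing subunit of the ligase that degrades IRP2, did not pass, at -0.11. The list's median was -0.19. Among 19 heme genes, Abcg2, a porphyrin exporter, rose by 1.33, while Blvrb, a biliverdin reductase, fell by 0.71 and Flvcr2 fell by 1.41, and Hmox1, the heme oxygenase that frees iron from heme, was at 0.13 (adjusted p = 0.0605 from edgeR). Among 18 mitochondrial iron and iron-sulfur genes, Slc25a28, an iron importer of the inner membrane, fell by 0.51, Isca2, an assembly factor for iron-sulfur clusters, was the highest at 0.49, and the median was -0.0050.

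On the soft hydrogel 2 of the 78 genes were called higher and 4 lower in KO against WT, 7.69% against 6.67% of all genes. On the stiff hydrogel 18 were called higher and 10 lower, 35.9% against 28.7% of all genes. Ferroportin (Slc40a1) at 0.65, Slc39a14 at 0.59, Hjv at 0.83 and Bmp2 at 2.35 were among those higher in KO on stiff. Trf at -0.75, Hmox1 at -0.59, Smad7 at -1.40 and Hamp2 at -2.70 were among those lower. The difference of the stiffness effects was called for 20 of the 78, 25.6% against 16.8% of all genes, 12 of them with the more positive effect in KO and 8 with the more positive effect in WT.

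The genes whose log2 CPM followed each called gene most closely over the 8 libraries, among 10036 or 10037 genes with a mean of at least 100 counts, were found by Pearson's r. They were Tm4sf1 (0.9996) and Ccl2 (0.9991) for Tfrc, Siae (0.9954) and Slc39a14 (0.9918) for Hamp, and Samhd1 (0.9937) and Fas (0.9903) for Bmp6. Each r is over 8 libraries of 4 groups with shared scaling and is given without a test. Tm4sf1, for example, stood at 148 and 149 normalized CPM on WT stiff and at 16.2 to 35.9 in the other 6 libraries.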

How the data were processed

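RNA-sequencing counts of 8 libraries were used. The deposited values are raw, unnormalized counts per gene, which the authors made with featureCounts from HISAT2 alignments of read pairs, with gene lengths and positions beside them. Per the labels the processing notes name HISAT2 2.0.5 and mm9. How strand and reads matching several genes entered the counting is not given in the sources used here, which bears on Ftl1, Hamp, Hamp2 and Bmp6.

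Counts were fitted with edgeR 4.0.16 in R 4.3.3: filterByExpr by group, TMM scaling, glmQLFit on all 8 libraries with a term per group (4 residual degrees of freedom, common biological coefficient of variation 0.0542) and glmQLFTest for stiff against soft in each genotype, knockout against wild type on each hydrogel, and the difference of the stiffness effects. Called genes passed 0.05 for the adjusted p and 0.5 for the absolute log2 fold change. Standard errors were the absolute log2 fold change over the square root of edgeR's F statistic. The 95% intervals used a t distribution with the residual degrees of freedom plus those edgeR adds from the spread of all genes. Normalized CPM divides by the scaled library size, and levels per length divide by the deposited gene length. Log2 CPM used a prior count of 2. Marker sums are CPM of the unscaled library total. A count of 0 allows up to 3 counts, 0.113 to 0.164 CPM, and covers counting error only. Replicates differed by more than sampling noise (chi-square per degree of freedom 2.62 to 5.45).

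The 10 genes and the lists were chosen with earlier results of these data known. Named were the 10 genes, Yap1 and Wwtr1, the highest, lowest and called genes of each list in wild type, genes called for the difference of the effects, 11 regulators and transporters fixed by name, the paralogs and overlapping genes, and for each gene called in wild type the 2 genes of highest Pearson's r. Shared sequence was read from 64-base windows of GENCODE M21 transcripts, promoter windows from RefSeq, with Biopython 1.88. Figures used matplotlib 3.10.9. The edgeR and DESeq2 calls for WT stiff against soft were tried on simulated counts, and the other comparisons and the sequence steps were not. Alternatives covered DESeq2 1.42.0, scaling, filters, the fold threshold, robust estimation, a replicate block, the 4 libraries compared alone, summed paralogs and each library left out. A few genes of the lists entered the counts and sums but are not reported here by name.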

Additional observations from a re-analysis of the deposited data

Results flagged for a closer look

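The stiffness effect differed between genotypes, by the interaction term of the edgeR fit, for 2 of the 10 genes and 20 of the 78 other iron genes tested, where 16.8% of all genes were called, each with an adjusted p under 0.05 and an absolute difference over 0.5 (log2, KO effect minus WT effect). For Tfrc the difference was -1.19 and for Hamp 1.23. In the hepcidin control list it was -2.06 for Hamp2, -1.29 for Smad7, -0.59 for Acvr1, 1.61 for Bmp2, 0.63 for Neo1, 0.63 for Id1, 0.60 for Hjv and 0.57 for Stat3. Id1 passed narrowly (adjusted p = 0.0447 from edgeR). In iron transport it was -2.25 for Steap1, -0.99 for Steap2, 1.63 for Lcn2, 1.53 for Steap4 and 0.65 for Slc39a14. The heme genes Abcg2 (-1.44), Flvcr2 (1.57) and Blvrb (0.71), the hypoxia factor Epas1 (1.27), and the mitochondrial genes Slc25a28 (0.60), Isca2 (-0.58) and Bola3 (-0.54) complete the set. The effects in KO alone ran from -0.46 for Steap1 to 0.18 for Epas1 among these genes, and none of the 22 was called there.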

How the results depend on the processing

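Without a minimum fold change the members called were 6 on WT stiff against soft, 6 between genotypes on soft, 9 between genotypes on stiff and 5 for the difference of the effects. With a log2 fold change over 1 they were 0 between genotypes on soft and 2 on stiff. The shares of all genes at these settings are not given here, so these counts are not read as a result about the members. An unadjusted p under 0.05 from edgeR was met by 6854 of the 14279 genes on WT stiff against soft. It was met by 4233 between genotypes on soft, 8015 between genotypes on stiff and 5562 for the difference of the effects. Between genotypes on soft, at a fold threshold of 0.5, 1 member was called with upper quartile scaling, with library size only and with no filter on low counts. Of all genes, 940 of 14279, 965 of 14279 and 1074 of 25810 were called there. Tfr2 was at -0.49, -0.45 and -0.50 in these settings. With a library left out, Tfr2 (-0.48 without the first WT soft library) and Tfrc (up to -0.52) crossed the fold threshold.

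With Hamp and Hamp2 summed, the Hamp value turned to 1.20 on WT stiff against soft, to -1.65 between genotypes on stiff and to -1.31 for the difference of the effects, by the construction of that sum. The other values that changed sign were near 0 and not called, and the cause was not tested. For Bmp6 in KO they were -0.0036 with DESeq2, -0.0026 with RLE scaling, -0.0037 with upper quartile scaling, -0.0022 with library size only, -0.011 with no filter, -0.0038 with at least 10 counts in every library, -0.0072 with only the 4 libraries compared, and -0.0856 to 0.0747 with a library left out. For Ireb2 between genotypes on soft they were 0.0072 with upper quartile scaling, 0.047 with library size only and 0.0025 with no filter, and -0.0275 to 0.0194 with a library left out. With a library left out, Ireb2 in KO ran from -0.0543 to 0.0379, Hfe in KO from -0.121 to 0.0198, Bmp6 between genotypes on soft from -0.0677 to 0.0931, Ftl1 in WT from -0.119 to 0.0157 and Aco1 for the difference of the effects from -0.0582 to 0.00046. Bmp6 between genotypes on stiff was -0.46 with library size only. Over the single-gene values 847 kept direction and side of the thresholds, 29 reversed, 7 dropped below the thresholds and 7 passed them anew.

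Replicate numbers came from titles and the deviations of same-numbered libraries correlated between -0.316 and 0.206, so they were not taken as pairs. With the replicate block the members called stayed at 3 on WT stiff against soft, 0 in KO, 2 and 5 between genotypes and 2 for the difference. Of all 14279 genes, 2705, 3, 895, 4071 and 2330 were called in the same order, so the member counts are not read as a result about the members. Over all genes in KO, the 3 called were 50 with no filter, 9 with only the 4 libraries compared, 1 with robust estimation and 1 to 8 with a library left out. Depth limits Hamp and Bmp6 most, at 35 to 203 counts per library.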
